A study of Mus musculus with 21 samples.

Results

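Respiratory complexes II to V were read as the genes of succinate dehydrogenase (complex II), the cytochrome bc1 complex (complex III) with its assembly factors, cytochrome c, cytochrome c oxidase (complex IV) and ATP synthase (complex V). Members were chosen by symbol alone, as every listed gene whose name begins with Sdh (subunits a to d), Uqcr, Uqcc, Cox4 to Cox8 or Atp5, together with Cyc1 and Cycs, without pseudogenes marked -ps. The 50 members among 22040 listed genes comprised 4 genes of complex II, 9 of complex III, 3 assembly factors of complex III, 1 gene for cytochrome c, 16 of complex IV and 17 of complex V. Symbols are those of the deposited tables, so the ATP synthase genes carry their older names (Atp5a1 for the alpha subunit, now Atp5f1a).

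Polyadenylated RNA of 21 cortical neuron cultures, prepared from the brains of P0 mouse pups, was sequenced, and all cultures had been given the antimitotic AraC (1 μM) against glia. Tau neurons carried prion promoter-driven human tau cDNA with the P301S mutation, which forms tangles, and received pre-formed tau fibrils on day 7 as seeds, with 18 further days in culture, while WT neurons lacked the transgene and the labels mention seeding for transgenic neurons only. Cultures then received AdipoRon, an adiponectin receptor agonist, or its vehicle DMSO for 24 h, at a dose the tags of the samples give as 10 μM and the deposited protocol as 10 mM. This gave 5 Tau DMSO, 5 Tau AdipoRon, 5 WT DMSO and 6 WT AdipoRon cultures. The reporting summary states that samples from the same animal went into each treatment, which with 6 and 5 WT cultures cannot hold for every animal here. The paper's text can also be read as seeding of both genotypes, so whether a difference between Tau and WT includes the fibrils is not settled by these sources.

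Electrons from succinate enter the chain at complex II, pass through ubiquinone to complex III, and are carried by the small protein cytochrome c to complex IV, which reduces oxygen. Complexes III and IV pump protons across the inner mitochondrial membrane, and ATP synthase uses the return of those protons to make ATP, with a rotating membrane part and a catalytic head in the matrix. Neurons depend on this chain for the energy of ion pumping and synaptic transmission. Core subunits of complexes III, IV and V are encoded in mitochondrial DNA, and none of those 6 genes was listed under its mt- symbol.

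The values are the authors' mean log2 CPM (read counts scaled to library size, on a log2 scale) of each gene over the cultures of a table. Sums over cultures balance on the CPM scale, so the values behave as the log2 of a mean CPM, in which a high culture weighs heavily. One table covers the 10 DMSO cultures of both genotypes, one the 11 AdipoRon cultures, one the 10 Tau cultures and one the 11 WT cultures. Levels therefore come as 4 means per gene without a spread, and their depth per culture is unknown. The AdipoRon mean minus the DMSO mean and the Tau mean minus the WT mean each compare cultures that are not shared, but both are made from the same 21 cultures, and the 4 means cannot be resolved into the 4 groups. A gene that is high in the WT AdipoRon group alone would be higher in WT and higher with AdipoRon at once. No difference below has a test or a replicate error, and p-values and standard errors of the authors' comparisons were not used. A difference of 0.2 on the log2 scale served as a limit of size. It was applied to the 14293 genes listed in all 4 tables with an average of their mean log2 CPM of at least 1, among them 47 members. Of the others, Cox4i2 and Cox7a1 were below that level, and Cox8b was not in the DMSO table.

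Several small subunit genes have close copies elsewhere in the genome, and reads from such stretches can be assigned to more than one place. The coding sequences of 6 genes on which the results turn are shown here from their 5′ start, as the canonical transcripts of GENCODE vM39 (GRCm39) give them, each for at most 300 bases. Capitals mark bases inside 50-base windows found exactly at another place in the genome. Cox7c and Cox5b of complex IV, and Atp5g2 of complex V, were among the members lower in Tau than in WT cultures and are almost wholly in capitals. Atp5k and Atp5e were also lower but are mostly or wholly in lower case, and Atp5g3, which encodes the same ring subunit as Atp5g2, is wholly in lower case. Not shown are Atp5g1, a further gene of that ring subunit, and Uqcrb, whose coding sequences lie wholly in such windows. Their Tau minus WT differences of -0.10 and -0.14 were within the limit.
Cox7c: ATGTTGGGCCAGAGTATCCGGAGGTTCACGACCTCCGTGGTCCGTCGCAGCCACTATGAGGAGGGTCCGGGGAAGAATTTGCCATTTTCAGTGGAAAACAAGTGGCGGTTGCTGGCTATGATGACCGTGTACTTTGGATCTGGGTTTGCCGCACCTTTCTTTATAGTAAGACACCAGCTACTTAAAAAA
Cox5b: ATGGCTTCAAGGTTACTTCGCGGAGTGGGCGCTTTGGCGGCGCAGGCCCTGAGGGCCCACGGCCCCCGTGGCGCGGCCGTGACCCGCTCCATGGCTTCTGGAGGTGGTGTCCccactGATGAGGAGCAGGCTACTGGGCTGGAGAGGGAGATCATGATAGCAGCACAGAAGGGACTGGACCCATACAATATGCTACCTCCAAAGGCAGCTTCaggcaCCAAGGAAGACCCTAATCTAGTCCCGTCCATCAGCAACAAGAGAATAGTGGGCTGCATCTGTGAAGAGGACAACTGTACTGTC
Atp5g2: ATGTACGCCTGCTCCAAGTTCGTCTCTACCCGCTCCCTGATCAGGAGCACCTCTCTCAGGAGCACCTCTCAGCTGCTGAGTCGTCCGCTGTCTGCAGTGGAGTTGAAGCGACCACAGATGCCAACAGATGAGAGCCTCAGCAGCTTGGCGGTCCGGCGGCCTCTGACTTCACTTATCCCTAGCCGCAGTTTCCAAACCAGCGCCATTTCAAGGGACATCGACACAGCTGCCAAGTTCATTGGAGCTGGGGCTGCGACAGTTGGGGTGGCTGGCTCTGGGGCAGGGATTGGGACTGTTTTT
Atp5g3: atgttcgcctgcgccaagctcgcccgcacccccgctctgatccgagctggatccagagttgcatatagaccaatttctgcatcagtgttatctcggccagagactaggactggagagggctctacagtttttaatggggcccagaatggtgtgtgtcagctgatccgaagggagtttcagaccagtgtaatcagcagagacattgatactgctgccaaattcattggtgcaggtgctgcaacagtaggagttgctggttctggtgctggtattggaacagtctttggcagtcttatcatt
Atp5k: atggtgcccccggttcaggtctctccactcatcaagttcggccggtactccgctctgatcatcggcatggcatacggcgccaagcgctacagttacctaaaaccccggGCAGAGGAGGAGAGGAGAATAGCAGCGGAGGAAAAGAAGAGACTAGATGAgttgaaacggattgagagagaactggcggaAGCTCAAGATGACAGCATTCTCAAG
Atp5e: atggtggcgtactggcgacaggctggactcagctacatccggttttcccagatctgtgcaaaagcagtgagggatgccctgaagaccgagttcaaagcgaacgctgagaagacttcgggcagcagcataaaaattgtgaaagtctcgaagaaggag

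In GRCm39, Cox7c lies on chromosome 13 (86189246 to 86195023, minus strand), Cox5b on chromosome 1 (36730530 to 36734495, plus strand) and Atp5g2 on chromosome 15 (102571295 to 102580787, minus strand). Atp5g3 lies on chromosome 2 (73738779 to 73741933), Atp5k on chromosome 5 (108581110 to 108582949) and Atp5e on chromosome 2 (174302861 to 174305906), all on the minus strand. Of the coding bases, 189 of 189 in Cox7c, 377 of 387 in Cox5b and 438 of 438 in Atp5g2 lay in windows found elsewhere, against 75 of 213 in Atp5k, 0 of 156 in Atp5e and 0 of 423 in Atp5g3.

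Genes of complexes II to V were on the whole close to level between Tau and WT cultures, with a tail of 8 members that were lower in Tau. The median Tau minus WT difference over the 47 members was -0.075, against -0.018 over all genes tested. The difference was below 0 for 37 members and above 0 for 10, beside 8249 and 6044 of the 14293 genes tested. Lower in Tau by at least the limit were 8 of 47 members (17.0%), beside 11.3% of all genes, and these were Atp5l, Atp5g2, Cox5b, Cox7c, Atp5md, Atp5k, Atp5h and Atp5e. No member was higher in Tau by the limit, beside 4.69% of all genes. Among members with a mean log2 CPM of at least 4 the share past the limit in either direction was 13.6% of 44, beside 9.10% of 9710 genes at such levels.

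Between AdipoRon and DMSO cultures the members were spread less widely around 0 than all genes. Their median difference was 0.0046, against 0.039 over all genes, and it turned to -0.034 when centred on the latter. Centring also put the medians of complexes II, IV and V below 0. Higher with AdipoRon by the limit were 4 of 47 members (8.51%), beside 20.4% of all genes, and these were Cox7c, Cox6b2, Atp5g2 and Uqcc3. Lower by the limit were Cox6a2 and Cycs, 2 of 47 (4.26%), beside 13.9% of all genes. The robust SD across genes (from the median absolute deviation) was 0.110 for members and 0.187 for all genes in this difference, and 0.079 and 0.104 in Tau minus WT.

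**Figure D1:**
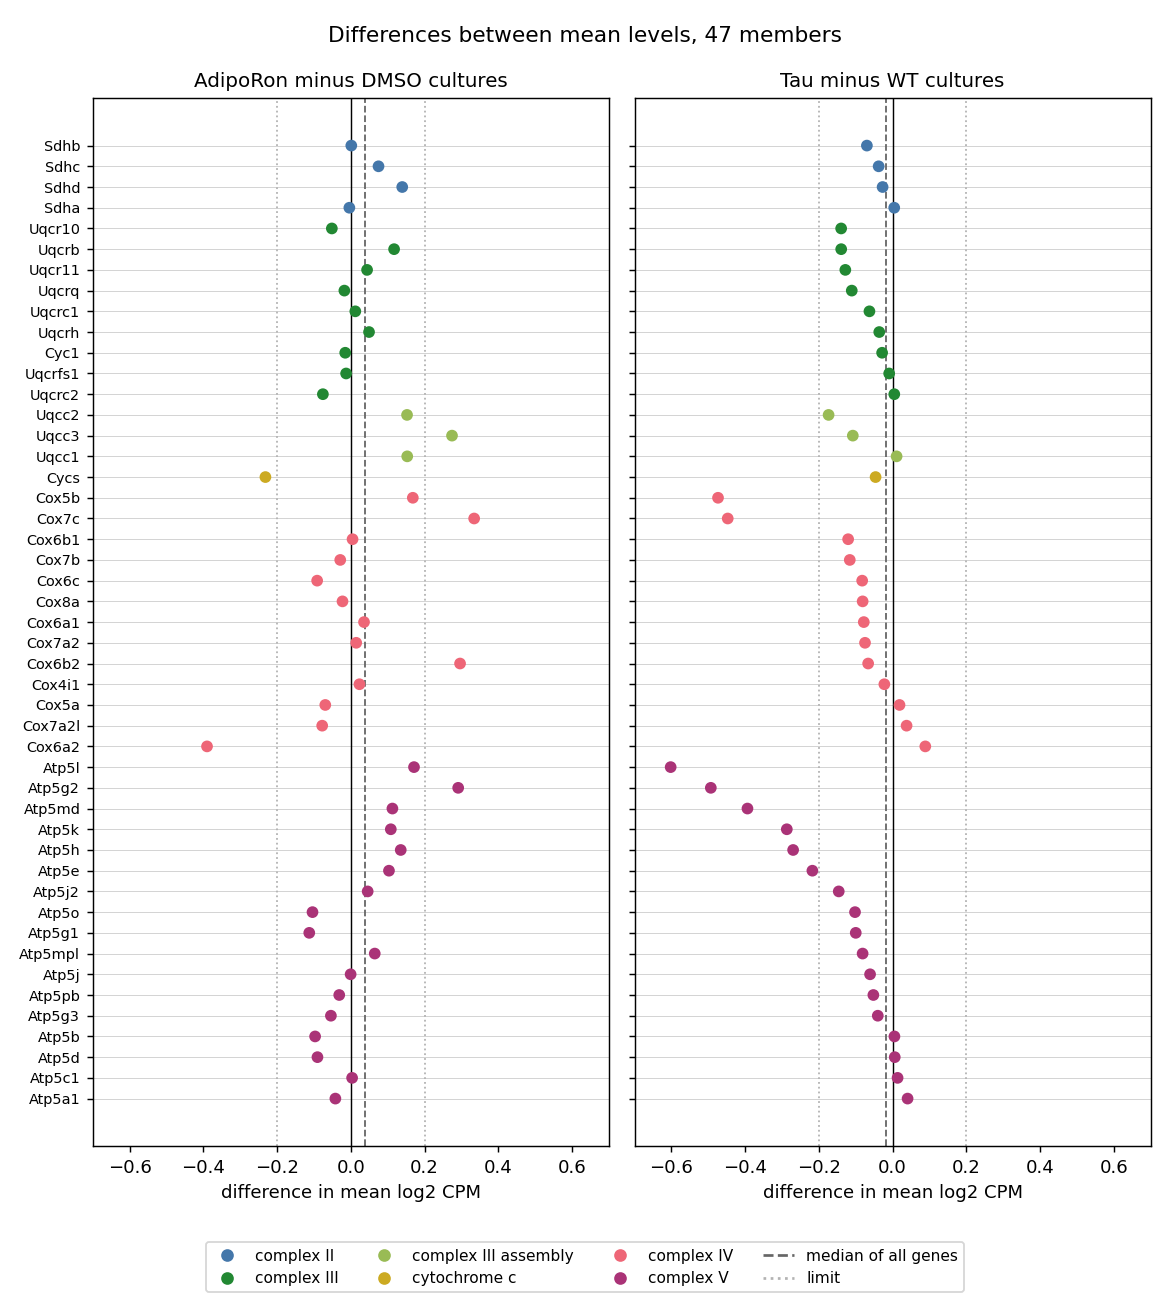
Difference in mean log2 CPM of the 47 members, AdipoRon minus DMSO cultures at left and Tau minus WT cultures at right, 1 point per gene coloured by complex, with the median of all genes dashed and the limits of 0.2 either way dotted. Points have no error because the tables hold means; Atp5l at -0.60 is the lowest in Tau minus WT and Cox6a2 at -0.39 the lowest in AdipoRon minus DMSO.

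Complex II, the only complex of the chain encoded wholly in the nucleus, was close to level in both differences. Sdha, the flavoprotein that oxidises succinate, had a mean log2 CPM of 8.63 in each of the DMSO, AdipoRon, Tau and WT cultures. Sdhb, the iron-sulfur subunit, stood at 6.78 in DMSO, 6.78 in AdipoRon, 6.74 in Tau and 6.81 in WT cultures. The membrane anchors Sdhc and Sdhd were 0.075 and 0.14 higher with AdipoRon, the latter the largest difference of the complex. The complex's medians were 0.038 for AdipoRon minus DMSO and -0.032 for Tau minus WT, and 0 of its 4 genes passed the limit. Its summed level lay between 705 CPM in DMSO and 719 CPM in AdipoRon cultures.

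None of the 9 genes of complex III passed the limit in either difference. The core proteins differed little, with Tau minus WT at -0.063 for Uqcrc1 and 0.0047 for Uqcrc2. Cyc1, the haem-bearing cytochrome c1, was at -0.028 and Uqcrfs1, the Rieske iron-sulfur protein, at -0.0092. The accessory subunits Uqcr10, Uqcrb, Uqcr11 and Uqcrq lay at -0.14, -0.14, -0.13 and -0.11, and Uqcrh, the hinge protein, at -0.036. The differences of 8 of the 9 genes were below 0, beside 8249 of the 14293 genes tested, with a median of -0.063.

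With AdipoRon, complex III had a median of -0.013 and ran from -0.076 for Uqcrc2 to 0.12 for Uqcrb. The assembly factors Uqcc1, Uqcc2 and Uqcc3, which serve the making and insertion of cytochrome b, were all higher with AdipoRon, by 0.15, 0.15 and 0.27. Uqcc3 passed the limit, at 4.30 in DMSO, 4.58 in AdipoRon, 4.40 in Tau and 4.50 in WT cultures. In Tau minus WT these 3 genes lay at 0.011, -0.17 and -0.11, so that Uqcc2 was the member within the limit that came nearest to it from below, and Atp5e, at -0.22, was the nearest past it.

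Cycs, the gene for cytochrome c, which carries electrons to complex IV and triggers caspase activation when released, was lower with AdipoRon by 0.23. Its mean log2 CPM was 5.70 in DMSO, 5.47 in AdipoRon, 5.56 in Tau and 5.61 in WT cultures, which makes the AdipoRon mean the lowest of the 4. On the linear scale it was 14.8% below DMSO. Windows found elsewhere made up 38.0% of its transcript and matched 2317 other places.

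Within complex IV, 2 genes were lower in Tau cultures by the limit while the main isoforms of the others stayed near level. Cox5b, a nuclear-encoded subunit that binds zinc, stood at 5.50 in Tau, 5.97 in WT, 5.67 in DMSO and 5.84 in AdipoRon cultures. Its Tau mean was 28.0% below WT, a difference of -0.47. Cox7c, a small membrane subunit, stood at 4.06 in Tau, 4.50 in WT, 4.12 in DMSO and 4.46 in AdipoRon cultures. It was 0.45 lower in Tau and 0.33 higher with AdipoRon, so WT and AdipoRon were the high means and Tau and DMSO the low ones.

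Cox4i1, the main isoform of the regulatory subunit 4, and Cox5a, a nuclear-encoded subunit on the matrix side, differed between Tau and WT by -0.022 and 0.019. Cox6a1, Cox6b1, Cox6c, Cox7a2, Cox7b and Cox8a lay between -0.12 and -0.075. Cox7a2l, which joins complexes III and IV into supercomplexes, was at 0.038. The complex's median was -0.078, with 10 of 13 genes below 0, beside 8249 of the 14293 genes tested.

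With AdipoRon, the median of complex IV was 0.0046 and the genes furthest from it were scarce isoforms or Cox7c. Cox6a2, the heart and skeletal muscle isoform of subunit 6a, stood at 3.37 in DMSO and 2.98 in AdipoRon cultures, 23.7% lower. It was 3.23 in Tau and 3.14 in WT cultures, and at 0.089 its Tau minus WT difference was the highest of the 47. Cox6b2, known as the testis isoform of subunit 6b, stood at 3.85 in DMSO, 4.15 in AdipoRon, 3.98 in Tau and 4.04 in WT cultures, 22.8% higher with AdipoRon.

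**Figure D2:**
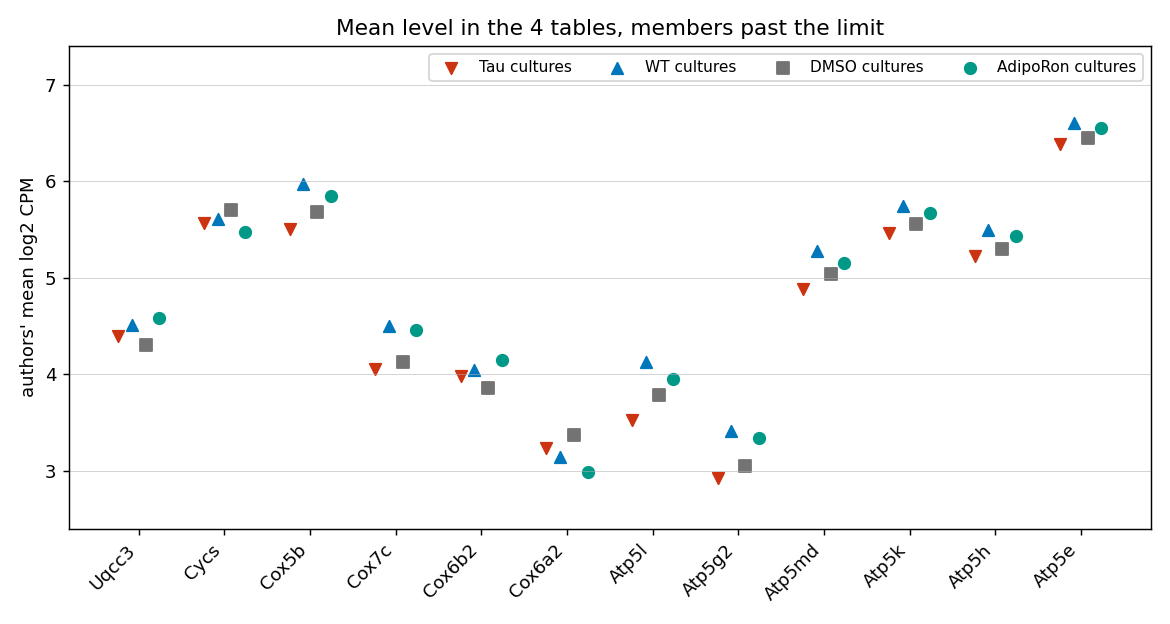
Authors' mean log2 CPM of the 12 members past the limit in either difference, with 1 marker each for the Tau, WT, DMSO and AdipoRon cultures and no error bars since each value is a mean without a spread. Tau is the lowest and WT the highest mean for the 8 genes lower in Tau, while Uqcc3, Cycs, Cox6b2 and Cox6a2 separate mainly by treatment.

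Of the 17 genes of ATP synthase, 6 were lower in Tau by the limit (35.3%), beside 11.3% of all genes. Without members that have over 25% of windows elsewhere the count was 3. By canonical transcript, the share was 31.1% of the 119 protein-coding genes under 700 nt, 16.5% at 700 to 1500 nt and 10.1% above. Of the 17 genes, Atp5l, Atp5k, Atp5e and Atp5g1 alone were matched to a canonical transcript under 700 nt. The 6 genes encode subunits of the membrane part, the stalk and the epsilon subunit. Atp5l, subunit g at the interface between 2 enzymes, stood at 3.53 in Tau, 4.13 in WT, 3.78 in DMSO and 3.95 in AdipoRon cultures, 34.1% lower in Tau. Atp5g2, one of 3 genes for the c subunit of the rotor ring, stood at 2.92 in Tau, 3.42 in WT, 3.05 in DMSO and 3.34 in AdipoRon cultures. Atp5md, the associated subunit known as DAPIT, stood at 4.88 in Tau, 5.27 in WT, 5.04 in DMSO and 5.15 in AdipoRon cultures. In each of these genes Tau was the lowest and WT the highest of the 4 means.

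Atp5k, subunit e, the partner of subunit g, stood at 5.46 in Tau, 5.75 in WT, 5.56 in DMSO and 5.67 in AdipoRon cultures. Atp5h, subunit d of the peripheral stalk, stood at 5.22 in Tau, 5.49 in WT, 5.30 in DMSO and 5.43 in AdipoRon cultures. Atp5e, the epsilon subunit of the central stalk, stood at 6.38 in Tau, 6.60 in WT, 6.45 in DMSO and 6.55 in AdipoRon cultures. The Tau minus WT differences of these 3 genes were -0.29, -0.27 and -0.22.

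The alpha, beta, gamma and delta subunits of the matrix part were level, unlike epsilon (Atp5e, -0.22). Atp5a1 and Atp5b, the alpha and beta subunits that form the nucleotide sites, had Tau minus WT differences of 0.041 and 0.0051. Atp5a1 stood at 9.82 in Tau, 9.78 in WT, 9.82 in DMSO and 9.78 in AdipoRon cultures, and Atp5b at 9.99, 9.99, 10.04 and 9.94 in the same order. Atp5c1 (gamma) and Atp5d (delta) lay at 0.014 and 0.006. The stalk and membrane genes Atp5o, Atp5pb, Atp5j, Atp5j2 and Atp5mpl lay between -0.15 and -0.052. Over the 17 genes the median was -0.10 and 13 were below 0, beside 8249 of the 14293 genes tested.

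With AdipoRon the median of complex V was 0.0034, and Atp5g2, 0.29 higher, was its single gene past the limit. All 6 genes lower in Tau were higher with AdipoRon, by 0.10 to 0.29, and because both differences come from the same cultures this order is not a separate result. Atp5b had a difference of -0.097 and Atp5g1 one of -0.11, the lowest of the complex. Because the abundant alpha and beta genes weigh most in a sum, the summed level of complex V differed by -0.045 with AdipoRon on the log2 scale and by -0.027 in Tau. Atpif1, the inhibitor of the enzyme's hydrolysis, is not a member by name and had differences of -0.067 with AdipoRon and -0.015 in Tau.

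The 3 genes of subunit c encode one mature protein behind different targeting sequences and behaved unequally. Atp5g3 supplied 85.1% of their summed CPM in DMSO, 84.8% in AdipoRon, 85.6% in Tau and 84.4% in WT cultures. Atp5g1 supplied 11.5% to 12.1%, and Atp5g2 2.73% in Tau and 3.68% in WT cultures. These shares take no account of length. Per kb, Atp5g3 exceeded Atp5g1 by 2.16 to 5.09 on the log2 scale, depending on the length taken. The Tau minus WT differences were -0.040 for Atp5g3, -0.10 for Atp5g1 and -0.49 for Atp5g2, so that the sum of the 3 genes was 278 CPM in Tau and 290 CPM in WT cultures. Windows found elsewhere made up 84.1% of the transcript of Atp5g1 and 88.3% of that of Atp5g2, and no window of Atp5g3 was found elsewhere.

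Apart from summed CPM and shares of it, which take no account of length, levels were compared between genes only per kb of transcript. This could be done for 46 of the 47 members. With the union of a gene's exons as its length, the median mean log2 CPM per kb was 4.98 for complex II, 5.34 for complex III, 3.86 for its assembly factors, 3.62 for Cycs, 4.06 for complex IV and 4.73 for complex V. The order of the complexes depends on the length taken. Complex IV was highest at 8.29 with the coding length, the longest of any transcript, and at 6.92 with the canonical transcript. The highest and lowest genes were Sdha (5.58) and Sdhb (3.71) in complex II, Uqcrq (5.88) and Uqcr11 (3.86) in complex III, and Uqcc2 (5.35) and Uqcc1 (2.80) among the assembly factors. In complex IV they were Cox6a1 (8.74) and Cox7c (1.99), and in complex V Atp5b (7.78) and Atp5g2 (0.47).

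Where a subunit has tissue-specific copies, the general isoform was the higher one per kb under all 4 definitions of length. Cox4i1 exceeded Cox4i2, the isoform of lung and of cells short of oxygen, by 8.56 to 9.82 on the log2 scale. Cox6a1 exceeded Cox6a2 by 4.64 to 5.32, Cox7a2 exceeded the muscle isoform Cox7a1 by 4.92 to 8.01, and Cox8a exceeded the muscle isoform Cox8b by 8.11 to 11.1. Cox6b1 exceeded Cox6b2 by 1.90 to 3.46, the narrowest gap of these pairs. Cox7b had no listed copy. Cox4i2, Cox7a1 and Cox8b had mean log2 CPM of -1.08, -1.73 and -0.89 over the tables that list them, so their differences between tables are not read.

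**Figure D3:**
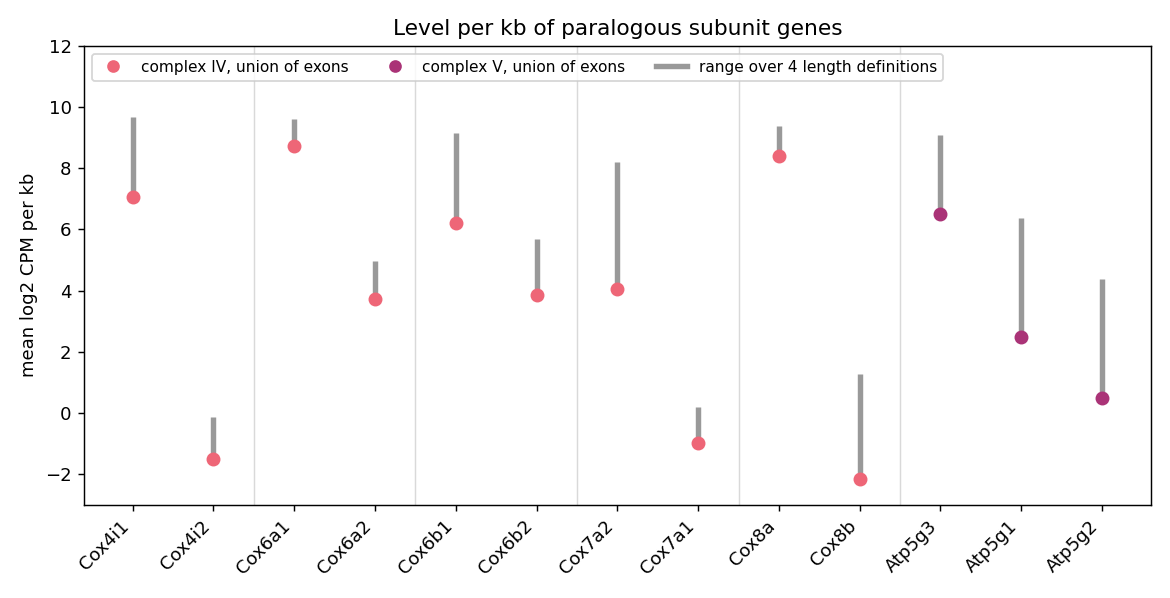
Mean log2 CPM per kb of paralogous subunit genes of complexes IV and V, averaged over the tables, with the union of exons as length (points) and the range over 4 definitions of length (grey bars, which are no error bars). General isoforms lie above tissue-specific ones, by the least for Cox6b1 over Cox6b2, and Atp5g3 lies above Atp5g1 and Atp5g2.

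Of the 8 members lower in Tau, 5 had many windows in common with other places in the genome. Neither many shared windows nor a short canonical transcript held for all 8. The share of a transcript's windows found elsewhere in GRCm39 was 88.3% for Atp5g2, 70.7% for Cox7c, 68.3% for Atp5l, 38.0% for Cox5b and 35.0% for Atp5h. It was 11.2% for Atp5md, 6.15% for Atp5k and 0.00% for Atp5e. The other places numbered 3 for Atp5g2 and for Cox5b, 5 for Atp5h, 7 for Cox7c and 17 for Atp5l, but 12118 for Atp5md. The share does not tell a few copies from widely repeated sequence. Of the 9 members with more than 25% of windows elsewhere, 5 were lower in Tau by the limit and the median Tau minus WT difference was -0.27. Of the 37 members with at most 25%, 3 were lower by the limit and the median was -0.063, and among the 14 members with none it was -0.034. Uqcrb (58.8%), Atp5g1 (84.1%), Cox7a2l (46.9%) and Cycs (38.0%) also had many such windows, with differences of -0.14, -0.10, 0.038 and -0.046. Across 46 genes the difference had a Pearson correlation of -0.60 and a Spearman correlation of -0.43 with this share. The pseudogene Cox7c-ps1, left out by the choice of members, had a Tau minus WT difference of -0.40 and stood at 2.96 in Tau and 3.36 in WT cultures. The part of shared sequence in these differences was not tested.

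Short transcripts had lower Tau minus WT differences among all protein-coding genes as well as among the members. The median difference was -0.13 for the 14 members with a canonical transcript under 700 nt, -0.057 for the 12 of 700 to 1500 nt and -0.042 for the 20 longer ones. All protein-coding genes of those lengths had medians of -0.13 (119 genes), -0.058 (1170 genes) and -0.016 (11778 genes). The correlation of the members' difference with log2 length was 0.36 (Pearson) and 0.45 (Spearman), and with mean level 0.54 and 0.49, all over genes that share their cultures. Atp5md is an exception by canonical length, with a transcript of 2812 nt. The coding lengths of the 8 members lower in Tau, taken as the longest of any transcript, ran from 174 nt (Atp5md) to 573 nt (Atp5h). They can exceed the coding sequences of the canonical transcripts shown above. That range also holds members within the limit, such as Cox4i1 (507 nt). The part of length or level in these differences was not tested.

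**Figure D4:**
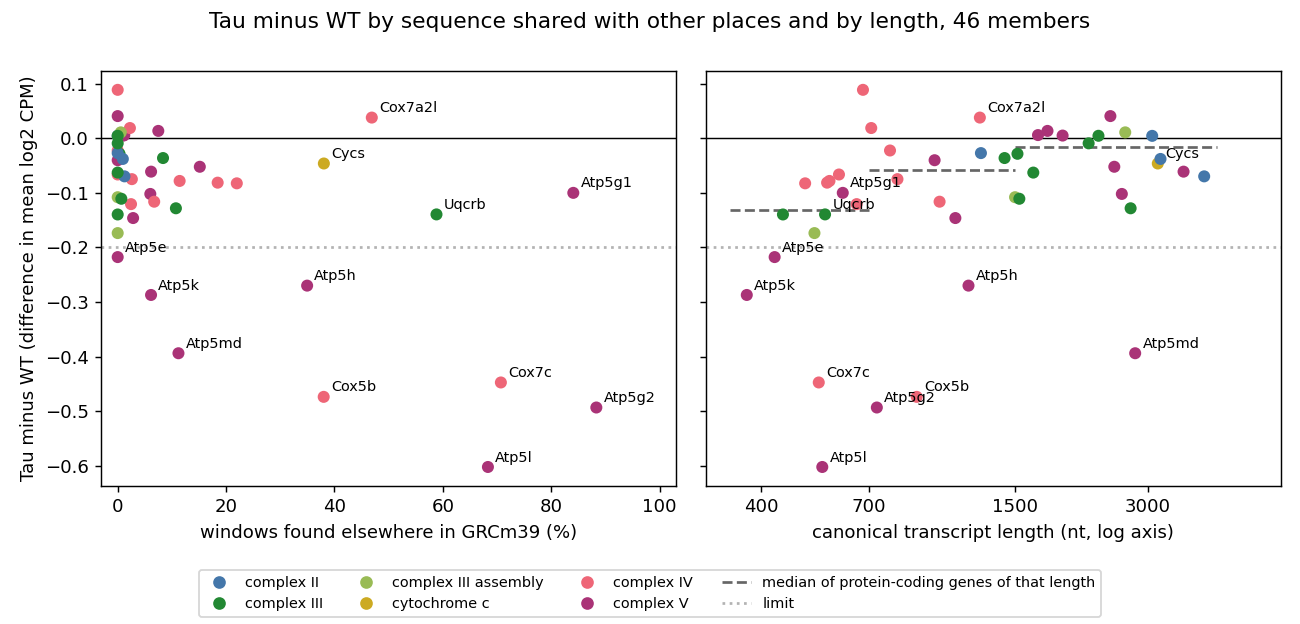
Tau minus WT difference in mean log2 CPM of 46 members against the percentage of transcript windows found elsewhere in GRCm39 (left) and canonical transcript length on a log axis (right), coloured by complex, with the limit dotted and medians of all protein-coding genes of each length class dashed. Atp5l, Atp5g2, Cox7c and Cox5b combine low differences with many shared windows, while Atp5e, Atp5k and Atp5md lie low with few.

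Other protein families are given for comparison. The 49 genes of complex I (Nduf) had a median Tau minus WT difference of -0.098 with 5 lower by the limit (10.2%), and the 78 mitochondrial ribosomal protein genes a median of -0.059 with 5 lower (6.41%), both shares below the 11.3% of all genes. The 80 cytosolic ribosomal protein genes, whose transcripts are short and rich in processed copies, had a median of -0.32, and 51 of them were lower in Tau by the limit (63.8%). With AdipoRon the medians of these families were 0.00012, 0.014 and 0.25.

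The genes that assemble and control the chain were mostly level. Of 30 assembly factors of complexes II to V, 28 were tested, with medians of 0.042 for AdipoRon minus DMSO and -0.016 for Tau minus WT. Pet100, a chaperone of complex IV, was 0.28 higher with AdipoRon and 0.27 lower in Tau, and Taco1, a translational activator of the mitochondrial Cox1 message, was 0.31 higher with AdipoRon. The other 26 stayed within the limit in both differences. Of all genes tested, 20.4% were higher with AdipoRon by the limit and 11.3% lower in Tau. Among 7 regulators of mitochondrial genes, 2 were lower with AdipoRon by the limit, beside 13.9% of all genes. These were the coactivators Ppargc1a and Ppargc1b, lower by 0.41 and 0.35. Ppargc1a stood at 6.90 in DMSO and 6.49 in AdipoRon cultures. Nrf1, Gabpa, Tfam, Esrra and Yy1, factors that act on promoters of respiratory genes or on mitochondrial DNA, lay between -0.088 and 0.080 with AdipoRon and between -0.037 and 0.030 in Tau.

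Promoters of members were searched for 4 motifs, since nuclear respiratory factor 1 and its fellows are known regulators of this gene set. RefSeq windows of GRCm38.p6, from 250 bases before to 50 after the start of a gene, were matched for 39 of 50 members. The motif of NRF1, GCGCATGCG read on both strands, stood in 7 of the 39 members (17.9%) beside 1.95% of all 27025 genes with a window. Being almost palindromic, it often matches both strands at overlapping positions. Stretches before the start of 5 of these 7 genes are shown with the match in capitals, to set genes that were lower in Tau (Atp5l, Atp5k, Atp5g2) beside Cycs, lower with AdipoRon, and Cox6a1, within the limit in both.
Atp5l: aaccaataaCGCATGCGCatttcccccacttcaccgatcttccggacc
Atp5k: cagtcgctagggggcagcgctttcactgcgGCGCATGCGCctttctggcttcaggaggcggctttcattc
Atp5g2: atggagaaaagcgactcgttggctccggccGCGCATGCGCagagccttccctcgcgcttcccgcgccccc
Cycs: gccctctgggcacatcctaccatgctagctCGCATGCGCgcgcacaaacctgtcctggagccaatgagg
Cox6a1: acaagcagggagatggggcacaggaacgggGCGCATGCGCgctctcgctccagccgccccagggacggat

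The stretches lie on the minus strand of GRCm38.p6 at chr9:44920945-44920992 (Atp5l), chr5:108434410-108434479 (Atp5k), chr15:102671050-102671119 (Atp5g2), chr6:50566592-50566660 (Cycs) and chr5:115349081-115349150 (Cox6a1). The first matched base lies 241, 50, 42, 61 and 162 bases before the start site, in that order. The Tau minus WT differences of the 7 genes were -0.60 for Atp5l, -0.49 for Atp5g2, -0.29 for Atp5k, -0.13 for Uqcr11, -0.078 for Cox6a1, -0.063 for Uqcrc1 and -0.046 for Cycs, all below 0, as were 37 of the 47 members. The GABPA motif CCGGAAGT stood in 4 members (10.3%, beside 4.31% of genes), the YY1 motif AAGATGGCG in 2 (5.13%, beside 1.64%) and the Sp1 motif GGGGCGGGG in 8 (20.5%, beside 12.9%), each on either strand. Atp5g2 held both NRF1 and Sp1 matches, and Uqcr11 both NRF1 and GABPA matches, at positions that did not overlap. A match describes letters in this window and not a bound site.

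The cultures expressed markers of neurons and of other cells, some of which differed between the genotypes. Map2, Rbfox3, Tubb3, Snap25 and Syt1 had mean log2 CPM of 7.59 or more in each table, a summed 2455 to 2900 CPM. Their median difference was 0.11 in Tau and -0.20 with AdipoRon. The 4 astrocyte markers were present at a higher summed 3333 to 3661 CPM, with Gfap at 10.70 in DMSO cultures, despite AraC. Such sums do not give shares of cells. All 5 microglia markers were lower in Tau, with a median of -1.19 and a summed 49.3 CPM in Tau and 98.3 CPM in WT cultures. The 5 oligodendrocyte-lineage markers tested of 6 were lower in Tau too, with a median of -0.75 and a summed 569 CPM against 878 CPM. The 3 excitatory markers were higher in Tau (median 0.33), the 3 inhibitory markers lay at a median of -0.013, and of the vascular markers Pdgfrb alone was tested, at -0.078. In such cultures fewer cells of a type and less RNA per cell cannot be told apart, and the part of cell composition in the members' differences was not tested. Mouse Mapt differed by -0.034 in Tau, while reads of the human cDNA were not analysed here. Prnp, the prion protein gene, was 0.41 higher in Tau.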

How the data were processed

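Polyadenylated RNA of 21 cultures had been sequenced, and samples were grouped by genotype and treatment from their titles. According to the study's methods, reads were aligned to mm10 with STAR and quantified with RSEM; its results text names GRCm39, and the table names point to Rsubread and to edgeR, with which the authors made their comparisons. The mean log2 CPM values were deposited by the authors, 1 mean per gene and table, and the filter on genes and the scaling of libraries are not given in the sources used here. The tables also hold the fold changes, likelihood ratios, p-values and false discovery rates of the authors' comparisons, which were not used. Values per culture were not analysed here, so the depth of each culture is unknown and no test was run. The paper gives only an approximate number of reads per sample. The sample descriptions tie WT AdipoRon cultures to the DMSO table and never name the WT table. Groups were read from the tables' names, and the levels bear this out, since the sums of culture number times mean CPM over the DMSO and AdipoRon tables and over the Tau and WT tables differed by at most 0.021 (log2) in 14293 genes.

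Differences between tables were computed in Python 3.11.15 (pandas 2.3.3, numpy 2.4.6) and checked on simulated tables. GENCODE vM39 matched 49 of 50 members (34 by symbol, 14 by RefSeq synonym and 1 by promoter sequence), and gave lengths and windows of 50 bases (step 5) along canonical transcripts, which were searched for exact matches elsewhere in GRCm39. This is not the build of the methods, and no coordinate was carried between builds. Named were the highest and lowest member of each complex per length and in each difference, paralog sets, core subunits, the inhibitor Atpif1 and every member past 0.2. Other genes come from fixed lists, apart from Mapt, Prnp, Cox7c-ps1 and the families compared by symbol, which were chosen after values were seen. The members and lists were chosen with earlier results of these data known.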

Additional observations from a re-analysis of the deposited data

How the results depend on the processing

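Each difference was recomputed with other filters, scales, limits and sets of members, which with the levels per kb gave 337 alternative values. A reversed sign was looked for only in medians of at least 0.2 in size. Cycs alone had such a median, at -0.23 with AdipoRon, and it stayed below 0. Smaller medians did change sign, such as that of all members with AdipoRon, from 0.0046 to -0.034 after centring on all genes. Of 96 medians, 93 moved by less than 0.05, a step as large as many of the medians themselves. That of all members in Tau minus WT went from -0.075 to -0.046 without members under 700 nt. Complex II could not move under the filters, since all its genes passed each of them. The count of 93 is therefore no measure of how stable the medians are. Without members under 700 nt, a choice made after seeing the data, the assembly factors of complex III had medians of 0.21 for AdipoRon minus DMSO and -0.048 for Tau minus WT, from 2 genes in place of 3. As a mean over members, complex V had -0.16 for Tau minus WT.

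The counts past the limit depended on the choices more. Members lower in Tau, 8 at the limit of 0.2, numbered 18 at 0.1, 5 at 0.3, 3 without members with over 25% of windows elsewhere and 4 without members under 700 nt. Members higher in Tau numbered 0, and 1 (Cox7a1) without the filter on the mean level. Members higher with AdipoRon, 4 at 0.2, numbered 14 at 0.1, 1 at 0.3, 2 without shared windows and 2 without short transcripts. Members lower with AdipoRon, 2 at 0.2, numbered 4 at 0.1 and 1 each at 0.3, at a mean log2 CPM of at least 4, without shared windows and without short transcripts. Each of these sets of members or limits is smaller or larger by construction, and no further cause was tested.

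Levels per kb moved with the definition of length. In the order longest transcript, coding length, canonical transcript (added after seeing the data), the median was 5.19, 7.50 and 5.65 for complex II, 5.72, 7.24 and 6.08 for complex III, 4.25, 6.35 and 4.45 for its assembly factors, and 3.69, 7.25 and 3.92 for Cycs. It was 5.24, 8.29 and 6.92 for complex IV, 5.63, 7.72 and 6.24 for complex V, and 5.42, 7.61 and 6.10 for all members, against 4.88 with the union of exons.

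No paired analysis was possible because the columns used carry means over cultures and no replicate. No culture was left out in turn, since the means cannot be taken apart, and the spread between cultures is unknown.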
